A study of Mus musculus with 2 samples.

Results

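The genes described here encode 9 enzymes that make serine, pass its one-carbon unit to folate, and make asparagine: Phgdh, Psat1, Psph, Shmt1, Shmt2, Mthfd1, Mthfd2, Mthfd1l and Asns. They were taken by symbol from a deposited table of 55468 mouse gene rows, each matched exactly 1 row, and all 9 exceeded the level filter used below. RNA was sequenced from KPC2 cells, labelled as a pancreatic cancer cell line. The wild type cells were untreated, and the gemcitabine-resistant cells were kept long term in 260 ng/mL gemcitabine, a nucleoside analogue that blocks DNA synthesis. Both grew in the same serum- and GlutaMAX-supplemented medium, and the labels state neither how many clones the resistant line holds nor whether the drug was removed before harvest. There was 1 library of total RNA per group, so no test between the conditions is possible and every value describes these 2 libraries. Effects of the drug present at harvest and of the selected, resistant state itself cannot be told apart.

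Serine is made from the glycolytic intermediate 3-phosphoglycerate by Phgdh, which oxidises it, Psat1, which adds an amino group from glutamate, and Psph, which removes the phosphate. Serine hydroxymethyltransferases then split serine into glycine and a one-carbon unit carried by tetrahydrofolate, Shmt1 in the cytosol and Shmt2 in mitochondria. In mitochondria Mthfd2 oxidises that unit and Mthfd1l releases it as formate. Formate leaves for the cytosol, where Mthfd1 readies it for purine and thymidylate synthesis. Asns makes asparagine from aspartate and glutamine. Several of these genes are known targets of ATF4, the transcription factor of the amino acid and integrated stress responses, and Asns is a classic example.

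Levels are FPKM (fragments per kilobase of transcript, scaled to library size), a unit inferred from the values. The measure of difference was the log2 ratio of resistant over wild type after 1 was added to each FPKM, over the 12193 genes that reached 1 FPKM in either library (measured genes). A gene counted as at least 2-fold higher or lower when this log2 ratio reached 1 in size. Whole-fragment steps in low values gave about 23600000 fragments for the wild type library and 22800000 for the resistant one. From these, each member rested on roughly 192 (Psph) to 8081 (Psat1) fragments in wild type and 313 (Shmt1) to 10457 (Psat1) in resistant cells. The 95% intervals of folds below are exact conditional binomial intervals on such fragments and cover counting error only.

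Among simple epithelial keratin genes, Krt8, Krt18 and Krt19 stood above 1000 FPKM in both libraries, Krt19 at 1332 in wild type and 1738 in resistant cells. Krt7 stood far lower, at 7.56 and 32.6 FPKM (log2 ratio 1.97), and the adherens junction gene Cdh1 stood at 206 and 164 FPKM. The ductal transcription factor gene Sox9 stood at 8.19 and 1.88 FPKM (log2 ratio -1.67). Of 10 epithelial and ductal markers 8 were measured, and Epcam was near 0 (0.21 and 0.10 FPKM). Krt7 and Sox9 were the ones past the 2-fold line, 1 upward and 1 downward, beside 7.90% and 8.37% of all measured genes. All 10 fibroblast markers lay below the filter (highest value 0.52 FPKM). The 11 leukocyte markers summed to 38.4 and 33.0 FPKM, most of it Cd14 (36.8 and 25.7). The macrophage genes Cd68 (1.17 and 5.48, log2 ratio 1.58) and Lyz2 (0.36 and 1.53) were the other measured ones, and the pan-leukocyte gene Ptprc was at 0 and 0.23. Acinar and islet markers summed to 4.38 and 1.55 FPKM and endothelial markers to 7.49 and 10.4 FPKM, each carried by 1 gene. The part of these marker differences in the results below was not tested. In bulk RNA, fewer cells of a type and less RNA per cell cannot be told apart.

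Promoter sequence is shown for the 3 genes whose window held a stress response motif. All 3 were at least 2-fold higher in the resistant library, beside 7.90% of all measured genes. So were Mthfd2 and Shmt2, whose windows held no such motif. How ratios stood over all genes with such a motif was not tested. The windows are from RefSeq on GRCm38.p6 and run from 250 bases before to 50 after the annotated start. All 9 genes had a window, and Psat1 had a second one. Sequences are 5′ to 3′ on the gene's strand, and capitals mark every match. The motifs searched on both strands were the C/EBP-ATF response element TGATGNAA, the antioxidant response element TGACNNNGC and the E-box CACGTG. No match overlapped another.
Asns, chr6:7693160-7693459, minus strand: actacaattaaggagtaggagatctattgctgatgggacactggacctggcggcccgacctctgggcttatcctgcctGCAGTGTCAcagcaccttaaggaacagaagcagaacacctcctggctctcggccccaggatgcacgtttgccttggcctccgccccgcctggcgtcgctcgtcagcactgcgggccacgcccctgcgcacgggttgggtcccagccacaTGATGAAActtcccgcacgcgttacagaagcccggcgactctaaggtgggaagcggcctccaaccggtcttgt
Phgdh, chr3:98339920-98340219, minus strand: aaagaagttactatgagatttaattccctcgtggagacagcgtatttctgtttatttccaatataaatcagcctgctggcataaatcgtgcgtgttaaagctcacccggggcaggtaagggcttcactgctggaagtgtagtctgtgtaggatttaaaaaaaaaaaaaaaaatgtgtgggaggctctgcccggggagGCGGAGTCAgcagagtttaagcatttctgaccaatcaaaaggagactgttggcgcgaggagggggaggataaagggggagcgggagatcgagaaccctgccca
Psph, chr5:129787204-129787503, minus strand: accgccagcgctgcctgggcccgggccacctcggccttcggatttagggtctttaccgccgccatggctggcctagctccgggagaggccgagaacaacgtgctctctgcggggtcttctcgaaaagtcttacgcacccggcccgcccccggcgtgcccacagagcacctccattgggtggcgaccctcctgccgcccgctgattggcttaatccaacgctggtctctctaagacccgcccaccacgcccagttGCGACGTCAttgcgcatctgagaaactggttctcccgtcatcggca

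TGATGNAA was found in the Asns window alone among the members, as TGATGAAA on the gene's strand at chr6:7693225-7693232. This match begins 23 bases before the RefSeq start but lies inside the GENCODE gene, which extends to chr6:7693254. TGATGNAA occurs in 3.97% of all 32851 windows of the same length. TGACNNNGC was found on the opposite strand in the windows of Asns, Phgdh and Psph, and in 12.4% of all windows. In Phgdh it lies at chr3:98340014-98340022, and in Psph at chr5:129787241-129787249, just past the RefSeq start. The GENCODE gene of Psph extends further, to chr5:129787449. The Psph window also covers the start of the neighbouring gene Cct6a, which is read in the other direction. CACGTG, present in 7.15% of all windows, was in no member's window. The windows of Psat1, Shmt1, Shmt2, Mthfd1, Mthfd2 and Mthfd1l held none of these letters. A match describes the sequence only.

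Of the 9 genes, 5 were at least 2-fold higher in the resistant library, beside 7.90% of all measured genes. None was at least 2-fold lower, beside 8.37% of all measured genes, and 4 lay within 2-fold. Among genes reaching 5 FPKM, which include all 9, the shares were 7.76% higher and 7.84% lower. The median log2 ratio of the 9 was 1.18, against 0.02 over all measured genes. The members differed among themselves: 7 had a ratio above 0, beside 50.8% of all measured genes. Shmt1 and Mthfd1, the cytosolic folate enzymes, had ratios below 0. The plot of levels shows each gene in both libraries.

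**Figure D1:**
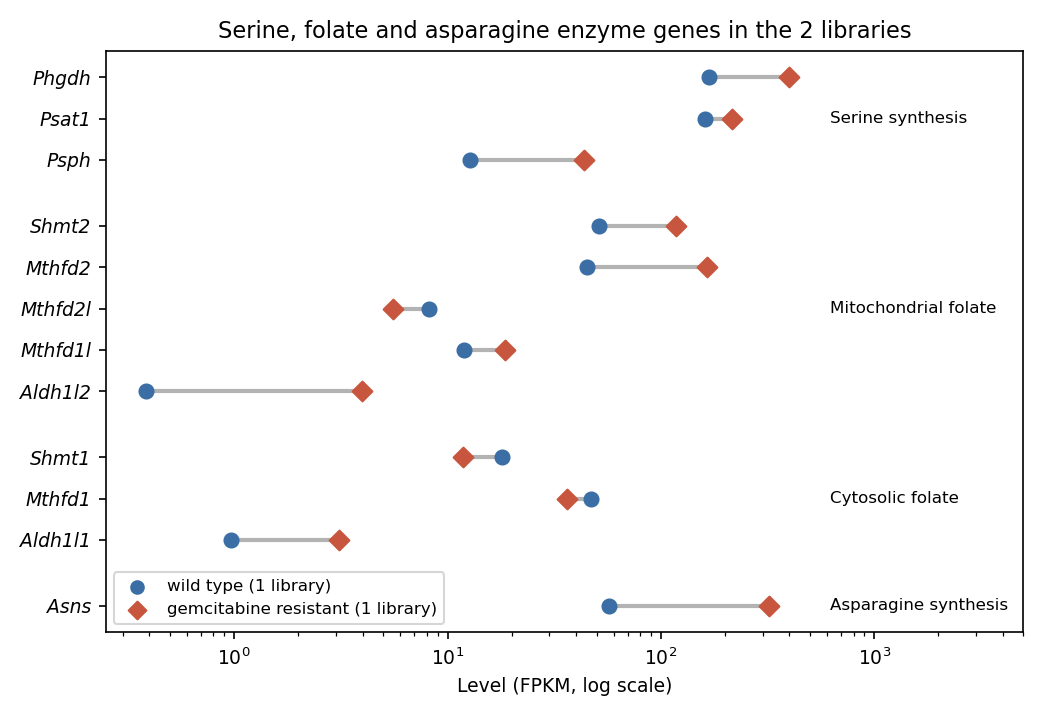
Level in FPKM on a log axis for the 9 enzyme genes and the paralogues Mthfd2l, Aldh1l1 and Aldh1l2, 1 point per library (circles, wild type; diamonds, gemcitabine resistant), grouped by role. Asns spans the widest gap among the 9, from 57.4 to 321.7 FPKM, and Shmt1, Mthfd1 and Mthfd2l are the genes drawn with the resistant point on the left.

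In serine synthesis, Phgdh and Psph were higher in the resistant library and Psat1 differed less. Phgdh, the entry step of the pathway, stood at 168 FPKM in wild type and 400.1 in resistant cells, 2.38-fold higher (interval 2.29 to 2.47, log2 ratio 1.25). It is a protein-coding gene at chr3:98313170-98339990 on GRCm38. Psat1, at chr19:15904678-15947337, stood at 160.8 and 214.9 FPKM, 1.34-fold higher (1.30 to 1.38, log2 ratio 0.42) and within the 2-fold line. Psph, at chr5:129765558-129787449, stood at 12.7 and 43.6 FPKM, 3.43-fold higher (2.92 to 4.06, log2 ratio 1.70).

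Psph was thus the lowest-expressed gene of the pathway in both libraries and the one with the highest ratio. In the wild type Phgdh and Psat1 were at nearly the same level, a ratio of 1.05 in FPKM, and in the resistant library Phgdh stood 1.86 times above Psat1. The FPKM of Phgdh was 13.2 times that of Psph in wild type and 9.18 times in resistant cells. For Psat1 over Psph the same ratio was 12.6 and 4.93. Summed over the pathway, levels were 341.6 FPKM in wild type and 658.7 in resistant cells, a ratio of 1.93.

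The Psph value carries a limit. Psph lies head to head with the chaperonin gene Cct6a on the other strand, 452 exonic bases are common to both (10.4% of the exonic bases of Psph), and no source used here says whether counting used strand. Cct6a stood at 169.9 and 170.8 FPKM, far above Psph and nearly level between the libraries. Phgdh has 17 near-identical annotated copies (at least 90% identity over at least 500 bases), nearly all processed pseudogenes, which summed to 2.53 FPKM in wild type and 6.27 in resistant cells. The most expressed copy, Gm7901, stood at 1.92 and 3.84 FPKM. Psat1 has 1 such copy, at 0.10 and 0.05 FPKM, and the other 7 members have none.

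Among the mitochondrial folate enzymes, Shmt2 and Mthfd2 were at least 2-fold higher in the resistant library and Mthfd1l lay within 2-fold. Shmt2, at chr10:127517123-127522444, stood at 51.3 FPKM in wild type and 117.8 in resistant cells, 2.30-fold higher (2.19 to 2.41, log2 ratio 1.18). Mthfd2, the mitochondrial dehydrogenase and cyclohydrolase, at chr6:83305691-83325908, stood at 44.9 and 165.4 FPKM, 3.68-fold higher (3.45 to 3.93, log2 ratio 1.86). Mthfd1l, which releases formate, at chr10:3973118-4167081, stood at 11.9 and 18.6 FPKM, 1.56-fold higher (1.44 to 1.70, log2 ratio 0.60). In both libraries Mthfd1l was the lowest of these mitochondrial enzymes. Mthfd2 was below Shmt2 in the wild type and above it in the resistant library.

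The cytosolic enzymes lay on the other side of 0, within the 2-fold line. Shmt1, at chr11:60788104-60811718, stood at 18.03 FPKM in wild type and 11.8 in resistant cells, 1.53-fold lower (1.33 to 1.77, log2 ratio -0.58). Mthfd1, a trifunctional enzyme, at chr12:76255298-76319803, stood at 46.9 and 36.3 FPKM, 1.29-fold lower (1.23 to 1.36, log2 ratio -0.36). Both counting intervals exclude equal levels in these 2 libraries, but without replicates the spread between cultures is not known. Shmt1 shares 184 exonic bases, 4.74% of its own, with Smcr8 on the other strand, which stood at 9.05 and 6.61 FPKM.

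Within a library, mitochondrial over cytosolic ratios show how the balance of transcripts stood. Shmt2 was 2.84 times Shmt1 in FPKM in wild type and 10.0 times in resistant cells. Mthfd1l was 0.25 times Mthfd1 in wild type and 0.51 times in resistant cells. Mthfd2 was level with Mthfd1 in the wild type, a ratio of 0.96, and 4.56 times Mthfd1 in the resistant library. The 3 mitochondrial members summed to 108.1 FPKM against 65.0 FPKM for the 2 cytosolic ones in the wild type, a ratio of 1.66. In the resistant library the sums were 301.8 and 48.1 FPKM, a ratio of 6.28. The grouping by compartment is textbook knowledge and was applied after the values had been seen.

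**Figure D2:**
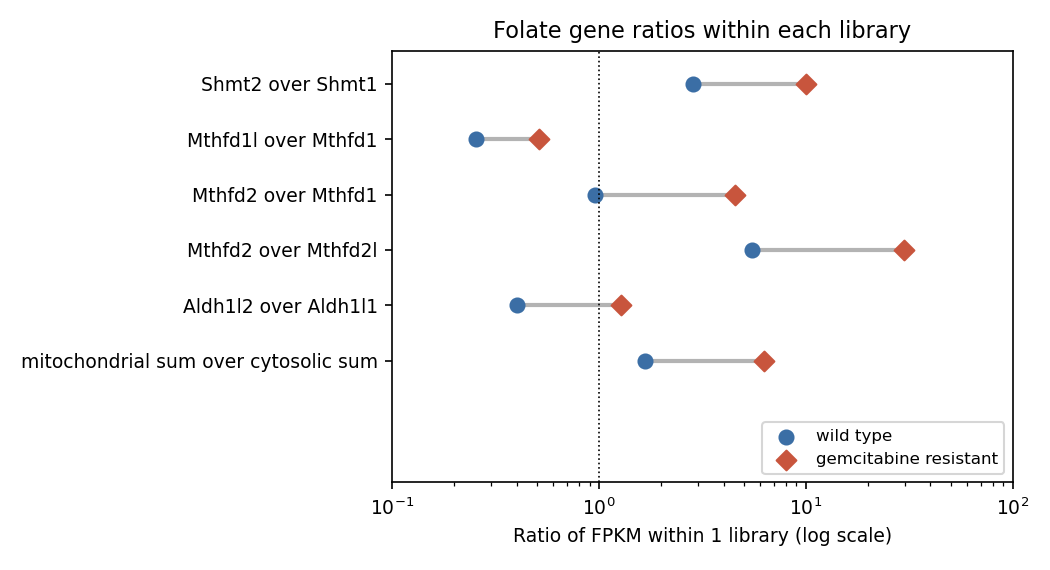
Ratio of FPKM within 1 library on a log axis, for mitochondrial over cytosolic folate genes, for Mthfd2 over its mitochondrial paralogue Mthfd2l, and for the sums of the 3 mitochondrial and 2 cytosolic members (circles, wild type; diamonds, gemcitabine resistant; dotted line, equal levels). The resistant diamond lies to the right of the wild type circle in each of the 6 ratios drawn, from 1.66 to 6.28 for the sums. All but the Aldh1l2 ratio share genes with another, so the 6 are not separate observations.

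None of the compartment pairs reached the threshold for near-identical copies. From the coding sequences of GENCODE M21, the Shmt1 and Shmt2 proteins (478 and 504 residues) were 63.4% identical over aligned residues. Mthfd1 and Mthfd1l (935 and 977 residues) were 62.3% identical. Mthfd2 and its paralogue Mthfd2l (350 and 338 residues) were 69.6% identical.

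Mthfd2l, the other mitochondrial dehydrogenase of this step, stood at 8.16 FPKM in wild type and 5.58 in resistant cells, a log2 ratio of -0.48, opposite in sign to Mthfd2. Mthfd2 was 5.51 times Mthfd2l in wild type and 29.6 times in resistant cells. The formyltetrahydrofolate dehydrogenases, which oxidise the one-carbon unit to carbon dioxide, were low. The mitochondrial Aldh1l2 stood at 0.39 and 3.97 FPKM, 10.2-fold higher in FPKM (7.51 to 14.3, about 44 and 437 fragments) with a log2 ratio of 1.84. The cytosolic Aldh1l1 stood at 0.97 and 3.10 FPKM, with a log2 ratio of 1.06, so the cytosolic genes were not all lower. Both dehydrogenase genes stayed under 5 FPKM, and with a pseudocount of 5 neither passed the 2-fold line.

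Asns had the highest ratio of the 9. At chr6:7675169-7693254, it stood at 57.4 FPKM in wild type and 321.7 in resistant cells, 5.61-fold higher (5.24 to 6.0, log2 ratio 2.47). Its level ranked 1438 among measured genes in wild type and 313 in resistant cells, and 1.04% of measured genes had a higher log2 ratio. Its window above is the one with the C/EBP-ATF element. Asnsd1, a relative with an asparagine synthetase domain, stood at 15.7 and 31.3 FPKM, a log2 ratio of 0.95. Asparaginase, Aspg, was listed at 0 in both libraries.

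By log2 ratio the order from the top was Asns, Mthfd2, Psph, Phgdh, Shmt2, Mthfd1l, Psat1, Mthfd1 and Shmt1. Counting intervals of the folds overlapped between the neighbours Mthfd2 and Psph and between Phgdh and Shmt2, and likewise between Mthfd1 and Shmt1. Of measured genes, 2.06% had a higher ratio than Mthfd2, 2.49% than Psph, 4.89% than Phgdh and 5.49% than Shmt2. For Mthfd1l and Psat1 the shares were 17.7% and 26.4%. At the other end 19.97% of measured genes had a lower ratio than Shmt1 and 29.3% a lower one than Mthfd1.

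**Figure D3:**
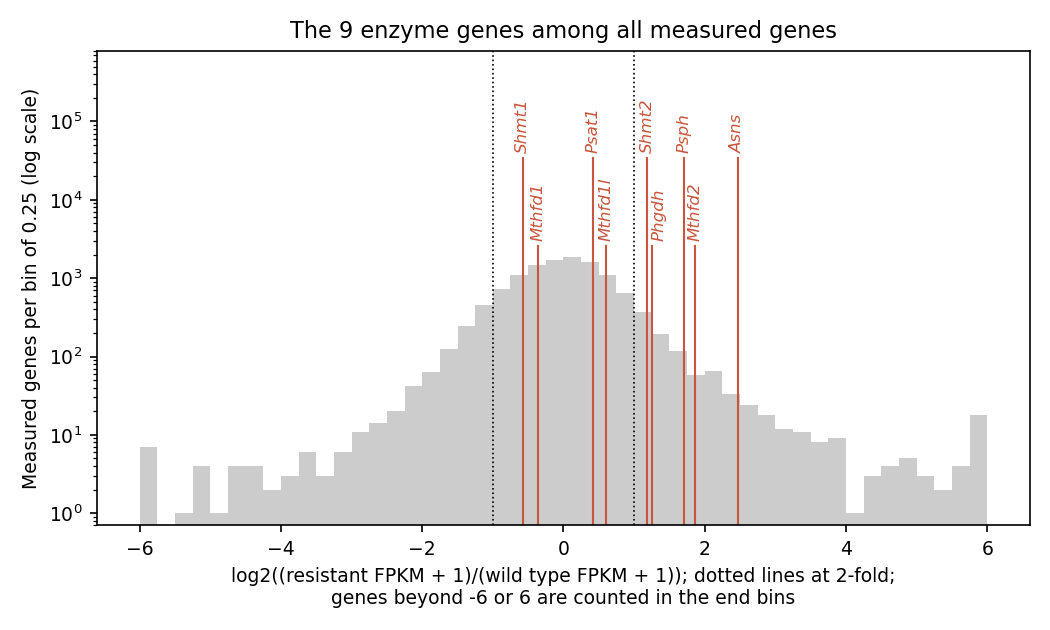
Number of measured genes (log axis) in bins of the log2 ratio of resistant over wild type on the FPKM + 1 scale, with genes beyond the ends counted in the end bins. Vertical lines mark the 9 enzyme genes: 5 lie to the right of the upper 2-fold line, from Shmt2 at 1.18 to Asns at 2.47, and the other 4 lie between the lines.

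The authors' deposited table holds their own test of these 2 libraries, and it called Asns alone among the 9, at a q-value of 0.0169. The authors' deposited table called 0.267% of its 13850 tested rows as higher in resistant cells and 0.137% as lower. Mthfd2 followed in the authors' deposited table with a q-value of 0.239, and the other 7 members were listed there at a q-value of 0.998. Psph, with a log2 fold change of 1.78 in the authors' deposited table, had a test statistic of 0.79, below the 1.89 of Shmt2, whose log2 fold change was 1.20.

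The members lie on 7 chromosomes, with Asns and Mthfd2 far apart on chromosome 6 and Shmt2 and Mthfd1l far apart on chromosome 10. The 5 measured genes on each side of a member had median log2 ratios from -0.49 (Psat1 and Mthfd1) to 0.29 (Asns). None of the 10 neighbours of Asns, Mthfd2, Psph or Phgdh was at least 2-fold higher or lower. The shares over all measured genes were 7.90% higher and 8.37% lower. Around Shmt2, 2 of 10 were at least 2-fold higher and 1 lower. Around Mthfd1, 4 of 10 neighbours were at least 2-fold lower and none higher. With 10 genes on each side of Mthfd1, 5 of 20 were lower and 2 higher. Mthfd1l had measured genes on 1 side only, 2 of 5 of them at least 2-fold higher.

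Of 20 genes for folate enzymes and transport, 17 were measured. Of these, 2 passed the 2-fold line upward (Aldh1l1 and Aldh1l2) and none downward, beside 7.90% and 8.37% of all measured genes, and the median log2 ratio was -0.12. Thymidylate synthase, Tyms, stood at 52.0 and 35.8 FPKM in wild type and resistant cells. The folate hydrolase gene Ggh stood at 9.24 and 5.06 FPKM. The purine synthesis enzymes that take one-carbon units were on the other side, Gart at 46.1 and 67.5 FPKM and Atic at 49.1 and 74.7 FPKM. Methionine synthase, Mtr, stood at 3.98 and 5.28 FPKM, and its reductase, Mtrr, at 8.41 and 7.68. Of the folate carriers, Slc19a1 stood at 9.19 and 8.49 FPKM, Slc46a1 at 1.54 and 2.19, and the mitochondrial carrier Slc25a32 at 8.55 and 6.60. The folylpolyglutamate synthase gene Fpgs stood at 13.6 and 12.7 FPKM, Mthfs at 4.12 and 3.16, and Mtfmt at 6.77 and 4.46.

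Genes of the glycine cleavage system, which feeds mitochondrial folate from glycine, lay within 2-fold. Gldc stood at 35.9 FPKM in wild type and 27.1 in resistant cells, Gcsh at 45.1 and 50.3, and Dld at 45.3 and 52.0. The aminomethyltransferase gene Amt was under the filter in both (0.65 and 0.13 FPKM). Of the choline-derived suppliers only Sardh passed the filter, at 1.55 and 1.93 FPKM.

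Downstream of serine, the transsulfuration gene Cth had the highest ratio of its list, 1.57 FPKM in wild type and 22.1 in resistant cells (log2 ratio 3.17). Cbs, the step before it that joins serine to homocysteine, stood at 2.08 and 1.13 FPKM. Serine racemase, Srr, stood at 2.04 and 7.89 FPKM, and Sptlc1, a subunit of the enzyme that opens sphingolipid synthesis from serine, at 15.6 and 7.27. These 3 past the line (Cth and Srr higher, Sptlc1 lower) were of 9 measured genes with a median of 0.06. Of all measured genes, 7.90% passed the line upward and 8.37% downward. Sptlc1 sat close to the line, at -1.01.

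Of 12 measured serine and glycine transporter genes, 2 passed the 2-fold line upward and 1 downward, beside 7.90% and 8.37% of all measured genes, and the median was -0.30. The neutral amino acid carrier Slc1a4 stood at 13.3 and 36.1 FPKM and the glycine transporter Slc6a9 at 10.8 and 29.8. The mitochondrial glycine carrier Slc25a38 stood at 4.42 and 1.59 FPKM. Slc1a5 stood at 14.7 and 22.5 FPKM, and Slc38a2, named after its values were seen, at 67.6 and 36.8 FPKM (log2 ratio -0.86). Sfxn1, the mitochondrial serine carrier, stood at 59.1 and 42.2 FPKM, opposite in sign to Shmt2.

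Enzymes that handle glutamate, the amino donor of Psat1, and its relatives were mostly above 0. Of 14 measured genes for glutamine, glutamate, aspartate and proline enzymes the ratio was above 0 for 12, beside 50.8% of all measured genes. In this list 3 passed the 2-fold line upward and none downward, beside 7.90% and 8.37% of all measured genes, with a median of 0.61. The proline enzyme gene Pycr1 stood at 2.41 and 15.8 FPKM and the mitochondrial alanine transaminase gene Gpt2 at 12.6 and 39.2. The third was Aldh18a1, named after its values were seen, at 26.2 and 63.7 FPKM. Glutamine synthetase, Glul, stood at 117.5 and 207.2 FPKM.

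Around 3-phosphoglycerate, the substrate of Phgdh, the glycolytic genes lay within 2-fold apart from Gapdh. Of 7 measured, 1 was thus at least 2-fold lower and none higher, beside 8.37% and 7.90% of all measured genes. Pgk1, which makes 3-phosphoglycerate, stood at 254.3 and 324.6 FPKM, and Pgam1, which competes for it, at 102.6 and 70.1 FPKM. Gapdh stood at 296.8 and 15.2 FPKM, a log2 ratio of -4.20. Gapdh is known for its many processed pseudogenes, which were not searched for here, and whether they took up its fragments was not tested.

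Among 20 measured regulators of such genes, 7 passed the 2-fold line upward and 2 downward, beside 7.90% and 8.37% of all measured genes, with a median of 0.35. Atf4 stood at 164.4 FPKM in wild type and 392.4 in resistant cells (log2 ratio 1.25). The stress transcription factor genes Ddit3 (12.2 and 186.6 FPKM) and Atf3 (2.29 and 53.1 FPKM) had the highest ratios of the list. Nfe2l2, which encodes the factor that binds antioxidant response elements, stood at 149.8 and 43.7 FPKM (log2 ratio -1.76). Mycn stood at 2.29 and 0.62 FPKM (log2 ratio -1.02). Both Mycn and the lowest of the 7 upward ratios, 1.03, sat close to the line. The message level of Atf4 does not measure its protein, which is set largely by translation.

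None of the 18 proliferation markers was at least 2-fold higher or lower, beside 7.90% and 8.37% of all measured genes. Their median was -0.17, with a range from -0.93 to 0.45. Mki67 stood at 57.3 and 58.6 FPKM. Over the pathway lists together, leaving the 9 members out, 16 of 84 measured genes passed the 2-fold line upward and 5 downward, beside 7.90% and 8.37% of all measured genes, with a median of 0.18.

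**Figure D4:**
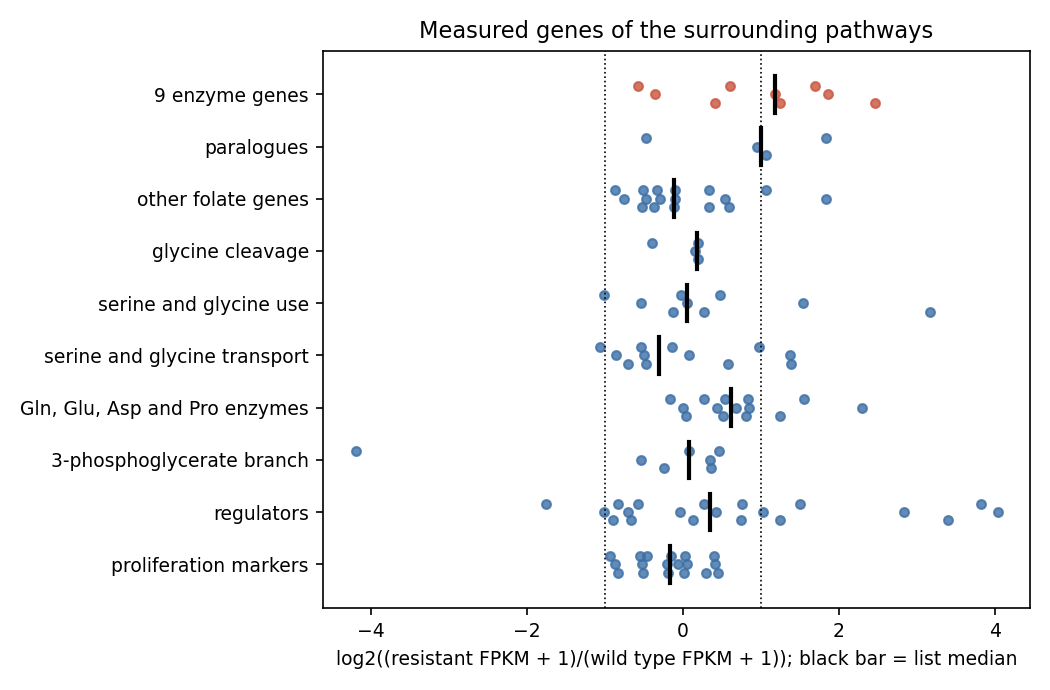
Log2 ratio of resistant over wild type on the FPKM + 1 scale for each measured gene of the 9 enzymes (top row) and of the surrounding gene lists, with the list median as a black bar and dotted lines at 2-fold. The 9 enzymes have a median of 1.18, the other folate genes -0.12 and the proliferation markers -0.17, and the point far to the left is Gapdh.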

How the data were processed

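RNA-seq values of 1 wild type and 1 gemcitabine-resistant library were used. GRCm38, HISAT2 and StringTie are named in the submitters' processing notes, without roles or versions. The deposited table gives each gene a value per library, read here as FPKM made by the authors because the values are not whole and fall on steps set by gene length. Per the file headers, the authors deposited for each row their test's score, its p-value and q-value, and a log2 fold change. These rest on 1 library per side.

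Of the rows, 13 marked as failed or too deep to test were left out, and rows of 1 symbol were summed. Steps were fitted on genes with 1 transcript of 1000 to 8000 bases, length less 160 bases: 94.0% of low values (wild type) and 94.4% (resistant) came within 0.1 of a whole fragment, up to 5.5. Fragments per gene used the median length of its coding transcripts in GENCODE M21 and are approximate. Copies were sought with BLAST 2.17.0+ and proteins aligned with Biopython 1.88. Python 3.11.15, numpy 2.4.6, pandas 2.3.3 and scipy 1.17.1 were used. The fold comparison and the counting intervals were tested on simulated counts with known changes, and the fit of the fragment steps was not.

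The members, gene lists and alternatives were chosen with earlier results of these data known. Besides the 9 members, the named genes are the measured paralogues, folate and glycine cleavage genes, fixed partner genes, and up to 2 genes past 2-fold in each direction from every other list. Some genes that this rule takes are not reported here. Marker genes and genes that overlap or copy a member are named where a result turns on them.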

Additional observations from a re-analysis of the deposited data

How the results depend on the processing

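No paired analysis was possible because each group has 1 library. Every member kept its sign when its ratio was recomputed (pseudocounts of 0.1 and 5, both rescalings, and the row with the highest mean). Under the alternatives tried, 5 members stayed at least 2-fold higher and 0 lower except when the fold threshold was altered. Summed FPKM over all rows was 998508 in wild type and 1197280 in resistant cells, and rescaling to equal sums was not tried. At a 4-fold threshold 1 member was higher and at 1.5-fold 6. Shares of all measured genes at these thresholds were not worked out, so neither count has a background beside it. With a pseudocount of 5 the log2 ratios of Psph and Mthfd1l were 1.46 and 0.48. With the upper quartiles made equal, a shift of -0.09, those of Phgdh, Psat1, Shmt2 and Mthfd1 were 1.16, 0.33, 1.10 and -0.45. The other 39 of 45 recomputed member ratios stayed within counting error. Of the pathway genes, 16 were higher and 5 lower in the main setting. At 1.5-fold 25 and 13 passed, and at 4-fold 6 and 1, again without such shares. The lower count was 2 with a pseudocount of 5 and 3 with a filter of 5 FPKM. Aldh1l1 did not pass the 2-fold line with equal upper quartiles. With a pseudocount of 5 neither Aldh1l1 nor Aldh1l2 passed it, and both fell below a filter of 5 FPKM. With 10 neighbours on each side the median around Phgdh was 0.25 and around Mthfd1 -0.07. The limit throughout is the single library per group: counting error is small for the members, and the spread between cultures was not measured.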
